A study of Mus musculus with 3 samples.

Results

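MiR-101a-3p and miR-101b-3p, the mature 3′ arms of the mouse mir-101a and mir-101b precursors, were followed in small RNA libraries of the postnatal heart. They were taken from the count table by their miRBase accessions, MIMAT0000133 for miR-101a-3p and MIMAT0000616 for miR-101b-3p. Each accession had 1 row, so the members were 2 of the 2049 rows in the table. The libraries came from wild-type C57BL/6 mouse hearts at postnatal day 1 (P1), day 7 (P7) or day 28 (P28), and the labels name no transgene or treatment. The labels give the tissue as heart, and the study describes it as ventricles. There was 1 library per age, and the number of hearts in each library is not given in the sources used here. The differences between ages therefore have no replicate check, and every interval given here covers counting error only.

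MicroRNAs (miRNAs) guide Argonaute proteins to messenger RNAs and lower their output, mainly by pairing of the miRNA seed, bases 2 to 8, with sites in the target. MiR-101 is best known for acting on Ezh2, the methyltransferase of polycomb repressive complex 2, which places the repressive H3K27me3 mark and to which Suz12 also belongs. In the heart miR-101 has been studied mainly in fibroblasts, where it is described as a restraint on fibrosis.

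The mature sequences are shown because they define what the 2 rows could tell apart. They are given 5′ to 3′ from RefSeq (GRCm38.p6), with bases 2 to 8 in capitals.
miR-101a-3p: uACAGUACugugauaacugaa
miR-101b-3p: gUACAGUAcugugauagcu
The annotated miR-101b-3p starts 1 base earlier than miR-101a-3p on the shared sequence, so the annotated seeds are the same stretch read 1 base apart. Over the 18 bases that the annotated sequences share, 17 are equal. The remaining base is A16G, counted from the 5′ end of miR-101a-3p, with the base of miR-101a-3p first.

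The mir-101b precursor also holds the stretch that a 3p product would have if it started where miR-101a-3p does. That stretch of the precursor is printed with bases 2 to 8 in capitals.
mir-101b from the start of miR-101a-3p: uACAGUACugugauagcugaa
Read from this start, its seed is that of miR-101a-3p, and A16G is again the only difference over the whole length. The table counts reads per accession and does not keep their 5′ ends, so the share of reads that began at either base was not measured. Separating the members thus rested on 1 internal base.

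Among 1679 mature mouse names in the RefSeq table, no other name had bases 2 to 8 of either member at its own bases 2 to 8. MiR-144-3p had bases 2 to 7 of miR-101a-3p, and miR-582-5p had bases 2 to 7 of the annotated miR-101b-3p. A further annotated miRNA, miR-101c, is not told apart by its bases, since all 19 of them are equal to miR-101a-3p. These are shown with the shared stretch, or for miR-101c its own bases 2 to 8, in capitals.
miR-144-3p: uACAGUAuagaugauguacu
miR-582-5p: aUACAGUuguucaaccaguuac
miR-101c: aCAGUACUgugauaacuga
The table does not pair accessions with names, and no level was assigned to these 3 miRNAs. How the authors placed reads that match miR-101a-3p and miR-101c equally is not given in the sources used here, so the level of miR-101a-3p may include or lack such reads.

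The members are encoded on different chromosomes. The mir-101a precursor, 83 bases long, lies on the minus strand of chromosome 4 (GRCm38, chr4:101346945-101347027), and its 3p product occupies chr4:101346957-101346977. In the GENCODE M21 annotation the precursor lies inside an exon of the long noncoding RNA gene E130102H24Rik on the same strand. The mir-101b precursor, 97 bases long, lies on the plus strand of chromosome 19 (chr19:29135279-29135375), with its 3p product at chr19:29135338-29135356. It lies in intron 8 of the 8 introns of the first listed transcript of Rcl1, a protein-coding gene of ribosome biogenesis, on the same strand. The nearest protein-coding genes on either side of mir-101a are Jak1 and Ak4, at 81663 and 72250 bases. Outside Rcl1, those nearest to mir-101b are Ak3 and Jak2, at 87318 and 116453 bases. The 5p arms of the precursors were less alike than the 3p arms, with 17 of 22 bases equal.

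Levels were compared as CPM, the count of a row divided by the library total and multiplied by 1000000. Totals were 1944237 counts for the P1 library, 2465680 for P7 and 2842526 for P28. Every level of the members stood far above 3 reads, which correspond to 1.06 to 1.54 CPM at these depths.

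MiR-101a-3p was higher at each later age. Its row held 4272 reads in the P1 library, 7203 in the P7 library and 15660 in the P28 library. The P1 level was 2197 CPM (95% Wilson interval 2132 to 2264), the P7 level was 2921 CPM (2855 to 2989) and the P28 level was 5509 CPM (5424 to 5596). The intervals of the 3 libraries did not overlap. The row moved from position 38 by reads in the P1 library to 31 at P7 and 22 at P28. Of the whole difference between P1 and P28, 21.9% was present at P7, so most of the increase in CPM lay between P7 and P28. That later step also covers more days than the step from P1 to P7, and rates per day were not compared. In hearts, as in any bulk tissue, more cells that contain a miRNA and more of it per cell cannot be told apart.

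MiR-101b-3p went the other way in CPM. Its reads were nearly level, with 1881 in the P1 library, 2014 in the P7 library and 1932 in the P28 library, while the libraries became deeper. The P1 level was 967 CPM (925 to 1012), the P7 level was 817 CPM (782 to 853) and the P28 level was 680 CPM (650 to 711), again with no overlap of the counting intervals. The row stood at position 72 in the P1 library, 82 in that of P7 and 80 in that of P28. MiR-101a-3p was thus the more abundant member at every age.

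**Figure D1:**
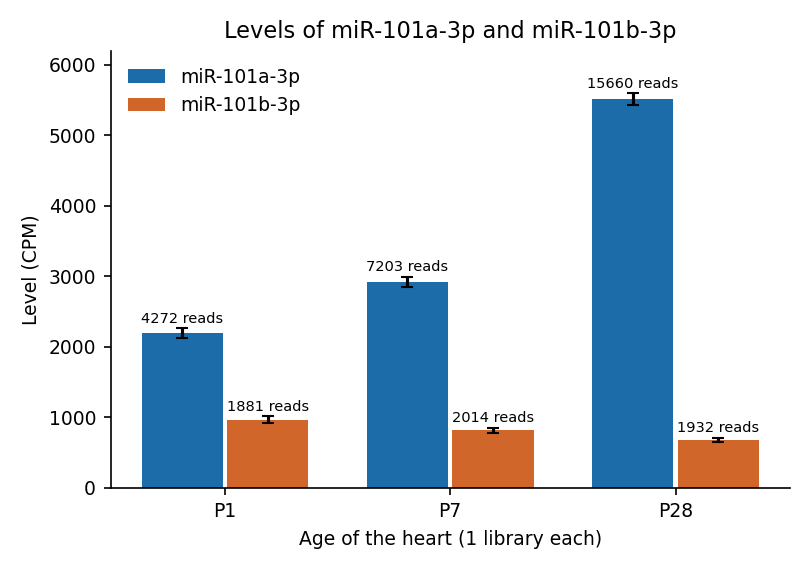
Levels of miR-101a-3p and miR-101b-3p in CPM (vertical axis) at P1, P7 and P28 (horizontal axis), with 1 library per age. Bars are the levels, error bars are 95% Wilson intervals for counting error only, and the numbers above the bars are reads; miR-101a-3p reaches 5509 CPM at P28 while miR-101b-3p declines from 967 to 680 CPM.

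The members together occupied a growing part of the library. Their summed level was 3165 CPM in the P1 library (3087 to 3245), 3738 CPM in the P7 library (3663 to 3815) and 6189 CPM in the P28 library (6098 to 6281). As a share of all counts this came to 0.316% on day 1, 0.374% on day 7 and 0.619% on day 28. The summed level at P28 was 1.96-fold that at P1 (log2 ratio 0.97, 95% Clopper-Pearson interval 0.93 to 1.01).

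To ask how the pair divided its reads, miR-101a-3p was expressed as a share of the reads of both members, a measure that needs no scaling between libraries. Its share was 69.4% in the P1 library (95% Wilson interval 68.3 to 70.6), 78.1% in the P7 library (77.3 to 79.0) and 89.0% in the P28 library (88.5 to 89.5). There were 2.27 reads of miR-101a-3p for each read of miR-101b-3p on day 1, 3.58 on day 7 and 8.11 on day 28. That ratio was 1.57-fold higher at P7 than at P1 (exact conditional 95% interval 1.46 to 1.70). It was 2.27-fold higher at P28 than at P7 (2.12 to 2.43) and 3.57-fold higher at P28 than at P1 (3.32 to 3.84). The members therefore differed in their course by more than counting error at both steps, whichever scaling is used for the libraries. The split between the rows rests on the single base A16G, and how many mismatches the authors allowed in small RNA reads is not given in the sources used here. Reads counted for the other member would change these shares, and their number was not measured. Differences between hearts of one age could not be estimated.

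**Figure D2:**
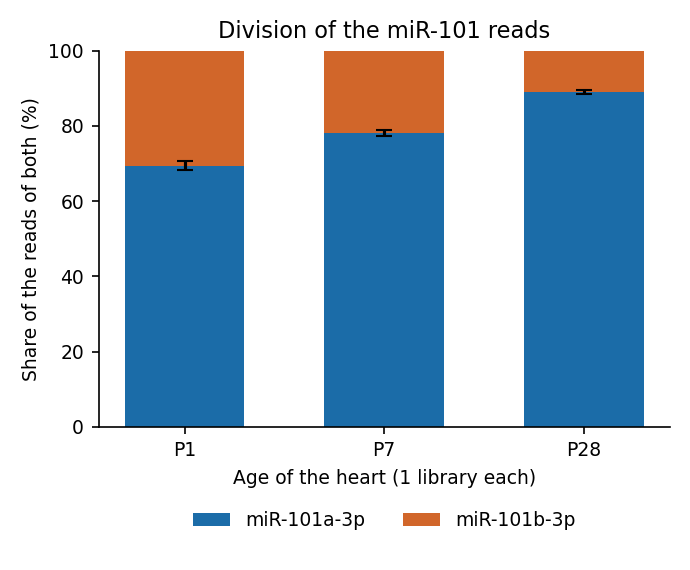
Share of the reads of both members (vertical axis, percent) taken by miR-101a-3p (lower part of each bar) and miR-101b-3p (upper part) at P1, P7 and P28, with 1 library per age. Error bars are 95% Wilson intervals for counting error; the share of miR-101a-3p goes from 69.4% to 78.1% and 89.0%.

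The ratios between ages were then set beside those of the other rows. The rows of the table, here called entries, were compared if they averaged at least 10 CPM across the libraries, which left 317 entries and included both members. Entries can repeat one another. Among mature rows with at least 300 reads in all, 12 pairs of rows from different mature accessions had counts within 1% of each other in every library, and some accessions have several rows. None of the 12 pairs held a member. The entries also include stem-loop rows, some of which nearly repeat a mature row. For example, MI0000137 had 33925, 27624 and 29666 reads at P1, P7 and P28, and MIMAT0000121 had 33923, 27624 and 29666. Such repeats also count in the library totals and in the positions by reads. Log2 ratios were computed with 0.5 reads added to each count, and an entry was called when its ratio was at least 2-fold.

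At P7 against P1, the log2 ratio was 0.41 for miR-101a-3p (0.36 to 0.47), a 1.33-fold higher level. It was -0.24 for miR-101b-3p (-0.34 to -0.15). Neither member reached 2-fold, a size passed by 10.4% of the entries in the upward and 11.7% in the downward direction. The median entry was at 0.02, and the quartiles lay at -0.53 and 0.55. Both members lay between the quartiles, with 97 entries above miR-101a-3p and 200 above miR-101b-3p.

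At P28 against P1, miR-101a-3p had a log2 ratio of 1.33 (1.28 to 1.38), or 2.51-fold. It was called higher, as were 12.3% of all entries, and 21 of the 317 entries had a higher ratio. MiR-101b-3p had a log2 ratio of -0.51 (-0.60 to -0.42), or 1.42-fold lower, and was not called, while 40.7% of all entries were at least 2-fold lower. The median entry was at -0.64, so that miR-101b-3p stood 0.13 above the median and miR-101a-3p stood 1.96 above it. MiR-101b-3p was thus less far below its P1 level than the median entry, and 149 entries were above it.

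At P28 against P7, the log2 ratio of miR-101a-3p was 0.92 (0.87 to 0.96), just under 2-fold, and 13 entries had a higher one. At least 2-fold higher levels were found for 3.15% of the entries and at least 2-fold lower levels for 39.1%. MiR-101b-3p had a log2 ratio of -0.27 (-0.36 to -0.17), with 110 entries above it and the median entry at -0.64. With the table reduced to 1 row per mature accession and repeated accessions left out, a setting chosen after seeing the data, 283 entries remained. Of these, 20 were above miR-101a-3p and 124 above miR-101b-3p at P28 against P1, whereas 10 and 88 were above them at P28 against P7. The comparisons share libraries, so their values are not independent of each other.

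**Figure D3:**
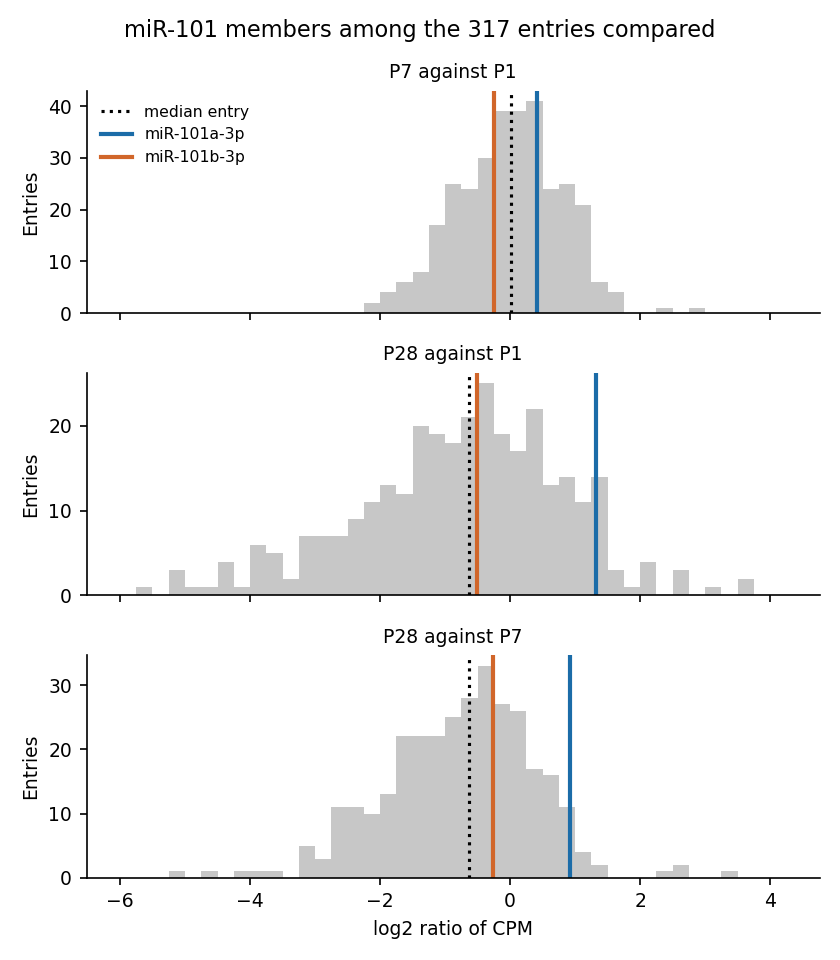
Number of entries (vertical axis) by log2 ratio of CPM (horizontal axis) in the 3 comparisons of ages, for the 317 entries compared. Vertical lines mark the median entry (dotted), miR-101a-3p (blue) and miR-101b-3p (orange); in both comparisons with P28 the median is at -0.64 and miR-101a-3p lies far to its right.

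The direction of miR-101b-3p between ages depended on the scaling, whereas that of miR-101a-3p did not. TMM scaling, which places the typical entry near no change, moved the median entry by 0.62 in the comparison of P28 with P1 and by 0.56 in that of P28 with P7. Under TMM the log2 ratio of miR-101b-3p was 0.12 in the first of these and 0.29 in the other, both above 0. Size factors from DESeq2 gave 0.12 and 0.38. MiR-101a-3p was at 1.95 under TMM and 1.96 under DESeq2 size factors at P28 against P1. At P28 against P7 it was at 1.47 and 1.56, and there it passed the 2-fold threshold that it missed by library totals. Under TMM 24.0% of the entries were at least 2-fold higher at P28 than at P1 and 12.6% at P28 than at P7. At P7 against P1, all 5 scalings placed miR-101a-3p above 0, from 0.36 to 0.56, and miR-101b-3p below 0, from -0.30 to -0.10.

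**Figure D4:**
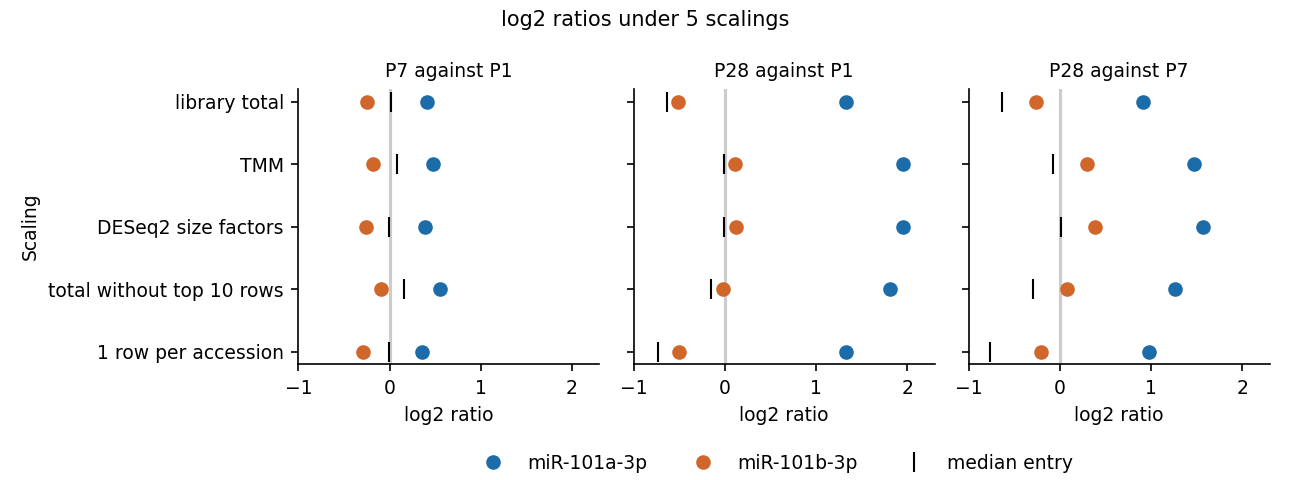
Log2 ratios of miR-101a-3p (blue), miR-101b-3p (orange) and the median entry (black ticks) on the horizontal axis under 5 scalings of the libraries (vertical axis), in the 3 comparisons of ages. MiR-101a-3p is above 0 throughout, whereas miR-101b-3p at P28 against P1 ranges from -0.51 by library totals to 0.12 under DESeq2 size factors, and the distance between the members stays the same in each panel.

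By library totals, miR-101a-3p was one of 47 entries among the 317 whose level was higher at each step, and miR-101b-3p was one of 122 whose level was lower at each step. Under TMM these numbers were 98 and 93, and miR-101b-3p was no longer among the latter.

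The entries most like each member were sought by the Euclidean distance between their pairs of log2 ratios, P7 against P1 and P28 against P7, over the 3 libraries. Of the 167 entries that averaged at least 100 CPM, the nearest to miR-101a-3p was MIMAT0000152, at a distance of 0.16. It had 1190 CPM on day 1, 1762 CPM on day 7 and 3232 CPM on day 28. The next was MIMAT0000527, 1 row of its accession, at a distance of 0.29, with 103 CPM on day 1, 113 CPM on day 7 and 204 CPM on day 28. Another row of that accession, MIMAT0000527_1, held more reads in each library, with 446 on day 1, 1295 on day 7 and 1056 on day 28. Its log2 ratio was 1.19 for the earlier step and -0.50 for the later one, so the accession's rows differed in course. MIMAT0000152 and the nearer row of MIMAT0000527 share a smaller increase from P1 to P7 and a larger one from P7 to P28. That likeness follows from how they were chosen and is not a separate result. Their levels were lower than that of miR-101a-3p. The later step covers more days than the earlier one, and rates per day were not compared.

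The nearest to miR-101b-3p was MIMAT0000140_1, 1 row of its accession, at a distance of 0.044, with 219 CPM on day 1, 185 CPM on day 7 and 159 CPM on day 28. Another row of that accession, MIMAT0000140, held more reads in each library, with 868 on day 1, 1171 on day 7 and 968 on day 28. Its log2 ratio was 0.09 for the earlier step and -0.48 for the later one, so these rows also differed in course. The second nearest was MIMAT0000565 at 0.10, with 302 CPM on day 1, 272 CPM on day 7 and 233 CPM on day 28. The distance between the members themselves was 1.35. Of the 167 entries, 60 were nearer to miR-101a-3p than miR-101b-3p was, and 111 were nearer to miR-101b-3p than miR-101a-3p was. The miRNAs of such similar sequence were thus not each other's neighbours in their course over the 3 libraries.

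**Figure D5:**
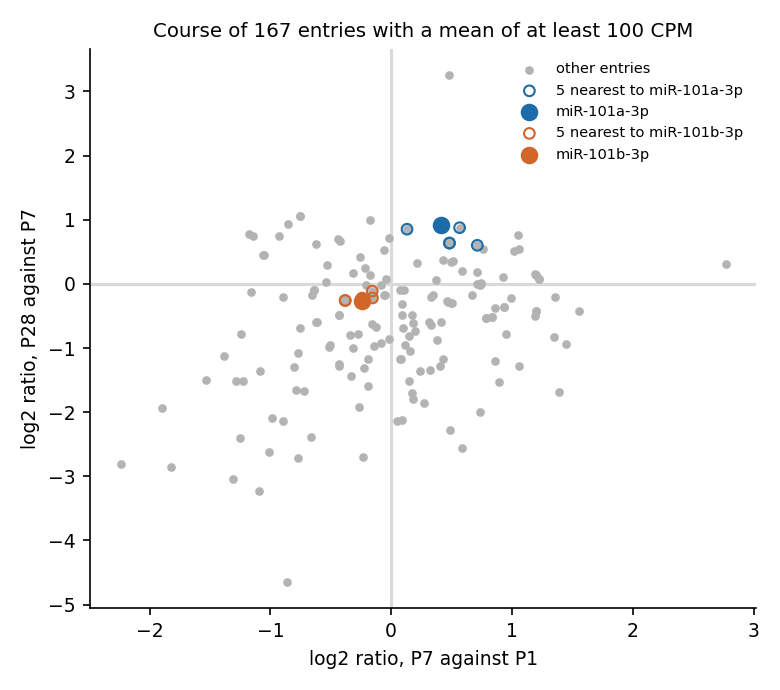
Log2 ratio of P28 against P7 (vertical axis) against that of P7 against P1 (horizontal axis) for the 167 entries that averaged at least 100 CPM, by library totals. Filled blue and orange points are miR-101a-3p and miR-101b-3p, open circles are the 5 entries nearest to each; miR-101a-3p lies at 0.41 and 0.92, and miR-101b-3p at -0.24 and -0.27.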

How the data were processed

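Small RNA libraries from wild-type hearts at P1, P7 and P28 (1 per age) were built with a NEBNext small RNA kit, per the labels. The deposited table holds raw read counts per miRBase accession, made by the authors without normalization. The submitters' processing notes name bcl2fastq, TopHat and mm10. The treatment of reads that match several loci, the mismatches allowed, the use of strand and the miRBase release are not given in the sources used here. The table has 2035 rows of mature and 14 rows of stem-loop accessions.

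Columns were matched to ages by the age code in their names. Counts were divided by the column total (CPM). With no replicates, edgeR's quasi-likelihood test could not be fitted and no p-value was computed. Intervals are 95% Wilson (levels, shares), Clopper-Pearson (log2 ratios) and exact conditional (ratio of the members). No molecular identifiers are stated, so intervals cover counting error only.

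The members and lists were chosen with earlier results of these data known. By rule, the text names the members, other mir-101 products, miRNAs sharing bases 2 to 7, and the nearest 5 entries by course, of which 2 per member are printed as the accessions carry no names here. For the same reason the planned lists of cell type markers and of miRNAs acting on Ezh2 or Suz12, and the levels of the 5p arms, were not analysed, so the labelled tissue was not checked against marker miRNAs. Sequences and miRNA positions come from RefSeq (GRCm38.p6), where both members were matched by name, and gene annotation from GENCODE M21; mm10 and GRCm38 are the same assembly. Analyses used Python 3.11.15, scipy 1.17.1, R 4.3.3, edgeR 4.0.16 and DESeq2 1.42.0.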

Additional observations from a re-analysis of the deposited data

How the results depend on the processing

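Each age has 1 library, so no setting could show the spread between hearts. The ratio between the members is free of scaling, and adding 5 reads to each count, an alternative chosen after seeing the data, left it within its counting interval in all 3 comparisons. Of the 33 member values under an alternative, 17 stayed within the counting interval of the value by library totals and 16 did not. The cause of these moves is the scaling itself, which adds one amount to every ratio of a comparison. No paired analysis was possible because only 1 library represents an age, and for the same reason no replicate could be left out. The alternative that adds stem-loop reads to the members was not run, since no stem-loop row was assigned to a mir-101 precursor here.

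For miR-101a-3p, the log2 ratio at P7 against P1 was 0.48 under TMM and 0.56 by the total without the 10 most abundant rows. At P28 against P1 it was 1.95 under TMM, 1.96 under DESeq2 size factors and 1.81 without those rows. At P28 against P7 it was 1.47, 1.56 and 1.26 under these settings and 0.97 with 1 row per mature accession. For miR-101b-3p, it was -0.098 at P7 against P1 without the 10 rows. At P28 against P1 it was 0.12 under TMM, 0.12 under DESeq2 size factors and -0.022 without the 10 rows, and at P28 against P7 it was 0.29, 0.38 and 0.076.

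By library totals, 33 (10.4%) of the 317 entries were at least 2-fold up and 37 (11.7%) down for P7 against P1. The numbers were 39 up (12.3%) and 129 down (40.7%) for P28 against P1. For P28 against P7 they were 10 up (3.15%) and 124 down (39.1%). Of 54 such counts under an alternative, 22 stayed within 1.5 times and 32 did not. A changed CPM filter also changes the number of entries compared, so its counts move with that number and are given with shares. TMM, DESeq2 size factors and the total without the 10 rows kept the 317 entries. With the same order, TMM gave 76 and 83 for P28 against P1 with 40 and 72 for P28 against P7. DESeq2 size factors gave 76 and 83, then 46 and 63. The total without the 10 rows gave 65 higher and 27 higher. A mean of at least 1 CPM left 526 entries. In the 3 comparisons the numbers were 70 (13.3%) and 76 (14.4%), 79 (15.0%) and 226 (43.0%), then 42 (7.98%) and 213 (40.5%). With no filter, and 945 entries, they were 225 (23.8%) and 206 (21.8%), 183 (19.4%) and 390 (41.3%), then 128 (13.5%) and 390 (41.3%). At 100 CPM, with 167 entries, they were 18 (10.8%) and 18 (10.8%), 19 (11.4%) and 55 (32.9%), then 3 (1.8%) and 50 (29.9%). Lowering the ratio to 1.5 gave 75 and 77 for P7 against P1, 59 up for P28 against P1, and 32 up for P28 against P7. The share of calls that were higher at P28 against P1 was 23.2% by library totals and 47.8% under TMM, and at P28 against P7 it was 7.46% and 35.7%. At P7 against P1 it was 47.1% by library totals and 62.2% without the 10 rows.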
